A study of Mus musculus with 2 samples.

Results

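The niche cytokine genes described here were Il7, Il33, Csf1, Kitl, Il6, Tnfsf13b and Tnfsf11, taken by gene symbol from both deposited matrices. They are 7 of the 32285 genes listed in each. All encode signals that stromal or endothelial cells of a lymph node can offer to lymphocytes, macrophages or mast cells. Endothelial cells had been sorted from peripheral or mesenteric lymph nodes of mice labelled wild type (WT) or Xbp1-KO. Both genotypes had received tamoxifen, so the controls were treated as well. Each of the 2 libraries held 4 pools marked by hashtags (antibody-borne oligonucleotides), 1 for every combination of node type and genotype. The labels state neither the Cre driver, the deleted exon, the strain, the age and sex, nor the number of animals in a pool. The spread between pools may therefore be technical as well as biological.

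As background, Il7 encodes interleukin-7, which keeps naive T cells and innate lymphoid cells alive, and Csf1 encodes the macrophage growth factor that signals through Csf1r. Il33 encodes a nuclear alarmin of the interleukin-1 family that acts through Il1rl1 once released, and Kitl encodes stem cell factor, the ligand of Kit. Il6 encodes a pleiotropic cytokine of the gp130 family. Tnfsf13b encodes BAFF, a survival factor of B cells, and Tnfsf11 encodes RANKL, which stromal cells beneath the node capsule use to signal to sinus macrophages and lymphatic endothelium. Lymphatic endothelium lines the sinuses through which lymph passes, and the sinus floor, ceiling and medulla carry different lymphatic cells.

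Library 1 held 7709 cell barcodes with 33024170 gene UMIs (unique molecular identifiers, each marking a captured RNA molecule), and library 2 held 2903 barcodes with 14744778. Only 3 barcodes occurred in both. After filtering, 9275 cells in 22 clusters remained: 3703 lymphatic, 4882 blood endothelial, 434 high endothelial-like, 77 mural-like, 44 fibroblastic-like, 64 dividing, 42 lymphocyte-like and 29 myeloid-like. Adding up the UMIs of each class over the cells of a pool in a library gave 8 sums per endothelial class. Lymphatic sums held 421632 to 6557199 UMIs and blood endothelial sums 847086 to 2907505. Levels are given as CPM, the UMIs of a gene per 1000000 gene UMIs of the sum. The classes fitted the sort: the summed level of 6 lymphatic markers was 2305 to 3546 CPM in lymphatic cells and 39.7 to 95.3 in blood endothelial cells. Xist, the transcript of the inactive X chromosome, was detected in 61.2% to 78.3% of the blood endothelial cells of the Xbp1-KO pools of library 1 and the WT pools of library 2. In the other 4 pools it was detected in 0% to 1.77% of those cells. Within a library, genotype and sex therefore cannot be told apart, and the libraries carry the opposite arrangement.

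The genes lie on 6 mouse chromosomes of the GRCm38 build, with positions from GENCODE M21. Il33 occupies chr19:29925114-29960718 on the plus strand, and Csf1 occupies chr3:107741048-107760469 on the minus strand. Kitl is at chr10:100015630-100100416 on the plus strand. Il7 is at chr3:7569994-7613760 on the minus strand, where the antisense gene Gm16685 overlaps it. Il6 is at chr5:30013114-30019981, plus strand. Tnfsf13b is at chr8:10006467-10039072, plus strand, and Tnfsf11 at chr14:78277445-78308043, minus strand. All 7 are protein-coding.

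Promoters were found for 6 of the 7 members in a RefSeq table on GRCm38.p6 (Il7 was the exception), as 250 bases before and 50 after each start. Those of Il33 and Csf1, the members with the highest shares of their UMIs in lymphatic cells, are shown here up to the start, 5′ to 3′ on the gene's strand, with motif matches in capitals. Il33 has a pair of annotated starts, at chr19:29924863-29925112 and chr19:29945540-29945789 for the stretches shown, and the Csf1 stretch is chr3:107760470-107760719.
Il33 first start: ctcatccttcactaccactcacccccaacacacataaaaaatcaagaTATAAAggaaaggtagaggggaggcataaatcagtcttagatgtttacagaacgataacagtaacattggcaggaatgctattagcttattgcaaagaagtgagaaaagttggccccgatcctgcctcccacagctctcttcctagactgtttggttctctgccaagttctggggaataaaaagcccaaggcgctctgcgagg
Il33 second start: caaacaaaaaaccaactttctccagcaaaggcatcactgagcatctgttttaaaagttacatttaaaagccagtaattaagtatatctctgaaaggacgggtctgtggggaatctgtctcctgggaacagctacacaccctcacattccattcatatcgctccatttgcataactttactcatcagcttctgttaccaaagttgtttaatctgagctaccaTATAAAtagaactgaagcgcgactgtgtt
Csf1: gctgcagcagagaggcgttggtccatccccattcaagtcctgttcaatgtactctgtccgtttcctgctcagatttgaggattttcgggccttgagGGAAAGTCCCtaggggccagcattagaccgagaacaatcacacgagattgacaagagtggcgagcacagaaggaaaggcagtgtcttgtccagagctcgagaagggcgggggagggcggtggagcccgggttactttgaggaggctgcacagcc
The motifs were searched on both strands, and no match overlapped another in these 3 stretches. The TATA motif TATAAA, present in 13.6% of the 32851 promoters of the table, began 203 bases before the first Il33 start and 29 bases before the second, and 25 bases before the start of Kitl. On the opposite strand it matched 32 bases before the start of Tnfsf11. An NF-kB motif, present in 0.411% of promoters and shown in capitals in the Csf1 sequence, began 154 bases before the start of Csf1, where it reads on the opposite strand, and 44 bases before that of Il6. The AP-1 motif TGANTCA (7.81% of promoters) matched in Il6 and Tnfsf13b. The core GACGTG recognised by XBP1 (6.38%) matched only in Tnfsf11 among the promoters examined, and the longer endoplasmic reticulum stress element (0.119%) matched in none of the promoters of the 6 members. Base composition differed among them: the 300-base Kitl window was 68.7% G and C with 28 CpG dinucleotides, that of Csf1 58.7% with 16, and those of Il33 46.3% with 6 and 42.3% with 5, beside a median of 52.7% and 7 over the table. The 3′ counts do not tell which start was used.

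The first comparison asked which endothelium carried each cytokine. Csf1, Il33 and Il7 were higher in lymphatic cells, Kitl was higher in blood endothelial cells, and Il6 was low in both. Of all UMIs of a gene in the 9275 cells, lymphatic cells held 94.3% of 16989 for Csf1, 97.2% of 4328 for Il33 and 90.1% of 836 for Il7. Of 8794 Kitl UMIs, blood endothelial cells held 69.3%, lymphatic cells 19.1% and high endothelial-like cells 9.44%. Il6 gave 195 UMIs in all, Tnfsf13b 38 and Tnfsf11 23.

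In lymphatic sums Csf1 ranged from 477 to 884 CPM with a median of 767, against 36.0 to 64.6 with a median of 52.0 in blood endothelial sums. The lowest lymphatic sum thus lay above the highest blood endothelial sum. The log2 difference was 3.66 (SE 0.09, adjusted p = 8.8696e-17, edgeR's quasi-likelihood test with Benjamini-Hochberg adjustment and the pool as a block), a 12.7-fold difference. Il33 ranged from 108 to 376 CPM (median 223) in lymphatic sums and from 0 to 6.39 (median 2.57) in blood endothelial sums, again with no overlap. Its log2 difference was 6.34 (SE 0.21, adjusted p = 1.5319e-15), or 81.0-fold. It was 152.6-fold without library 1 and 62.4-fold without library 2. Il7 was 35.5 ± 8.73 CPM (SD, n = 8) in lymphatic and 3.47 ± 1.08 in blood endothelial sums, a log2 difference of 3.18 (SE 0.17, adjusted p = 2.25571e-12).

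Kitl went the other way. It was 413 ± 29.3 CPM (SD, n = 8) in blood endothelial sums and 70.8 ± 23.1 in lymphatic sums, a log2 difference of -2.73 for lymphatic minus blood (SE 0.13, adjusted p = 4.02964e-13), with no overlap between the classes. Il6, at 4.74 ± 8.05 CPM in lymphatic and 5.98 ± 4.04 in blood endothelial sums, did not pass (log2 difference -1.03, SE 0.53, adjusted p = 0.0991). Over 7 alternative settings it ranged from -1.65 to -0.48 and passed in 2. So 4 of the 5 members that passed the filter on low counts were called, in a comparison that called 6799 of 11232 genes, or 60.5%. A call by itself therefore says little about these genes. Tnfsf13b and Tnfsf11 had too few UMIs to pass that filter in any endothelial fit that used it.

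Droplets also pick up free RNA, so the level in the other class was set against that of genes defining a lineage. Pooled over blood endothelial cells, Prox1, the regulator of lymphatic identity, stood at 0.842% of its lymphatic level, Lyve1 at 0.898% and Mmrn1 at 0.888%. Il33 stood at 1.19%, close to those markers, while Csf1 at 6.61% and Il7 at 8.81% stood above them. Kitl in lymphatic cells was 20.4% of its blood endothelial level, where the blood endothelial genes Flt1, Cd34 and Sox17 were at 0.838%, 1.29% and 0.591%. These are only part of a list of 7 blood endothelial markers. The whole list summed to a median of 1013 CPM in lymphatic sums and 5391 in blood endothelial sums, and Kdr gave most of the lymphatic level. High endothelial-like cells, which line the venules through which lymphocytes enter the node, had 206 ± 44.3 CPM of Kitl (SD, n = 6) and 15.3 ± 7.32 of Csf1.

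Within lymphatic endothelium the members followed different orders of subsets. Clusters had been formed without the 7 genes but from the same cells, so these orders are a description. Csf1 was highest in the floor-like cells of the Postn cluster, 1174 ± 81.0 CPM (SD, n = 6 sums of at least 10 cells), the floor-like Ccl20 cluster, 1112 ± 254 (n = 6), and the Marco-like medullary cells, 1028 ± 98.9 (n = 7). It was 586 ± 87.8 in the ceiling-like Ackr4 cluster (n = 8), 295 ± 89.0 in Ptx3-like cells (n = 7) and 131 ± 79.2 (n = 8) in a cluster led by Igfbp5 that met no marker set. Every blood endothelial cluster had a mean between 34.2 and 85.8 CPM. The highest of these belonged to the Ifit3b cluster, led by interferon-response genes.

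Il33 shared the top subsets with Csf1 but fell off more steeply down the order. It was 520 ± 162 CPM in Marco-like cells (n = 7), 363 ± 174 in the Postn cluster (n = 6) and 290 ± 102 in the Ccl20 cluster (n = 6). Ptx3-like cells had 92.9 ± 30.0 (n = 7), the Igfbp5 cluster 59.3 ± 59.8 (n = 8) and the Ackr4 cluster 48.8 ± 39.2 (n = 8), the latter pair with SDs near their means. The order of these lower clusters was that of neither tissue alone. Ptx3-like, Ackr4 and Igfbp5 cells had means of 112, 19.7 and 6.33 in peripheral sums, and 67.9, 77.9 and 112 in mesenteric ones. Among blood endothelial clusters the venous-like cells had the highest mean, 14.9 ± 19.6 (n = 4).

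Il7 ran in nearly the reverse order of Csf1. Ptx3-like cells had 58.9 ± 25.03 CPM (n = 7), the Igfbp5 cluster 56.3 ± 15.3 (n = 8) and the Ackr4 cluster 45.0 ± 15.3 (n = 8). Marco-like cells followed with 31.9 ± 17.8 (n = 7), then the Postn cluster with 21.6 ± 12.1 and the Ccl20 cluster with 15.9 ± 7.2 (n = 6 each). The floor-like cells richest in Csf1 thus had the lowest lymphatic Il7. Blood endothelial clusters had means between 0 and 7.2.

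Kitl was highest in arterial-like cells, 588 ± 54.5 CPM (n = 8), followed by the Ifit3b cluster at 492 ± 120, capillary-like cells at 474 ± 92.4, the Scgb3a1 cluster at 454 ± 44.3, the Penk cluster at 419 ± 61.9 and the Aqp1 cluster at 330 ± 54.9 (n = 8 each). Tip-like cells had 266 ± 101 (n = 6) and venous-like cells 239 ± 52.2 (n = 4), so the lowest blood endothelial means stood beside that of high endothelial-like cells. Its lymphatic levels split the subsets differently from Csf1: 172 ± 36.5 in Ptx3-like cells and 154 ± 51.0 in Marco-like cells (n = 7 each), but 70.3 ± 32.6 in the Postn cluster, 38.3 ± 14.4 in the Ackr4 cluster, 22.5 ± 20.7 in the Ccl20 cluster and 14.5 ± 10.1 in the Igfbp5 cluster.

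**Figure D1:**
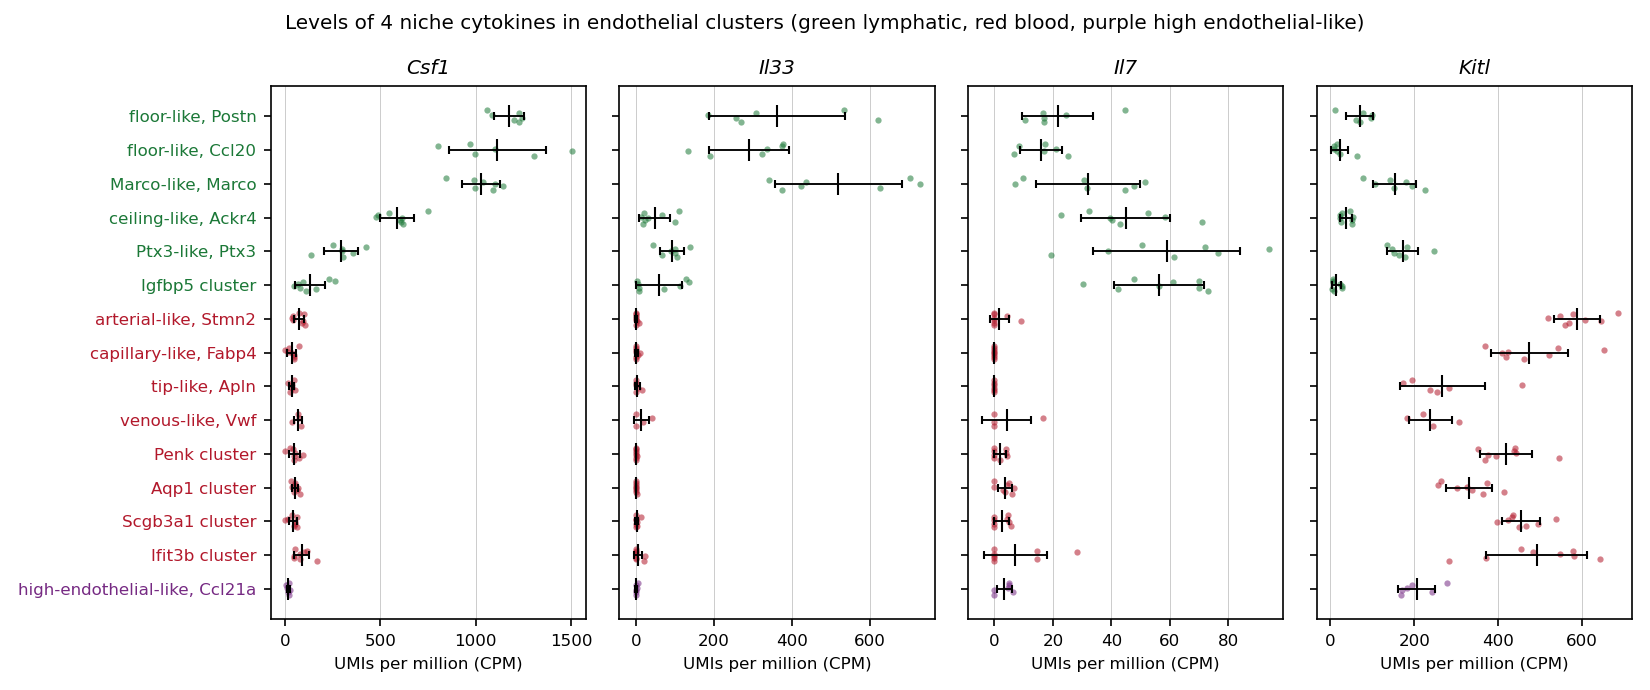
Levels of Csf1, Il33, Il7 and Kitl in CPM (linear axes that differ between panels) in 15 endothelial clusters. Each point is the sum of 1 library and pool with at least 10 cells, the vertical tick is the mean and the bar is ± 1 SD. Csf1 and Il33 peak in floor-like and Marco-like cells, Il7 in Ptx3-like cells and the Igfbp5 cluster, and Kitl in arterial-like cells.

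Which neighbours in these orders differed was tested over 44 pairs of clusters with an exact two-sided sign-flip permutation test over library-by-pool sums. None passed after adjustment (lowest adjusted p = 0.229), and 7 had an unadjusted p under 0.05. With 8 sums the smallest p the test can give is 0.0078125, with 7 it is 0.015625 and with 6 it is 0.03125. A lone result at any of these floors cannot pass adjustment over 44 tests, and the pairs named next all sit at their floor. The orders themselves were set by the means of the same sums. Csf1 was higher in Marco-like than in Ackr4 cells in 7 of 7 sums, and higher in Ackr4 than in Ptx3-like cells in 7 of 7 (exact permutation p = 0.015625 each, adjusted p = 0.229). Il33 was higher in Marco-like cells than in the Postn cluster in 6 of 6 sums, as was Kitl (exact permutation p = 0.03125 each, adjusted p = 0.229). Neighbouring subsets in an order were thus not shown to differ, which does not show that their levels are alike.

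The genes with the most similar pattern over 16 clusters of at least 50 cells were found among 10159 genes by Pearson's r of log2(CPM + 1), as a description over clusters that share libraries. For Il33 they were Gria3 (r = 0.98), Cpe (0.97) and Trmt9b (0.96). For Csf1 they were 2900097C17Rik (r = 0.96), Ahcyl1 (0.95) and Aco1 (0.94), and for Kitl they were Hfe (r = 0.95), Sp100 (0.93) and Adgrl4 (0.92). Il7 was most like Tlcd2 (r = 0.95), Serpinb6b (0.93) and Zmynd8 (0.92).

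The second comparison set peripheral against mesenteric nodes. In lymphatic endothelium Il33 was lower and Kitl higher in peripheral nodes, while Csf1 did not pass the test. Lymphatic Il33 was 168, 189, 108 and 162 CPM in the peripheral sums (WT and Xbp1-KO of library 1, then of library 2) and 303, 376, 256 and 331 in the mesenteric sums in the same order. All 4 mesenteric sums lay above all 4 peripheral ones. The log2 difference, peripheral minus mesenteric, was -1.09 (SE 0.15, adjusted p = 0.000703, edgeR), a level 2.13-fold higher in mesenteric nodes. It was called under each of 9 alternative settings, between -1.20 and -1.01.

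Kitl in lymphatic sums was 96.6, 103, 84.6 and 71.1 CPM in peripheral nodes and 56.2, 70.5, 37.9 and 46.9 in mesenteric nodes. The groups did not overlap, although the highest mesenteric and lowest peripheral sums nearly met. The log2 difference was 0.65 (SE 0.17, adjusted p = 0.0382, edgeR). It kept its direction but not its call with DESeq2 (adjusted p = 0.0867), with another hashtag rule (0.0638), without library 1 (0.0935) and with every sum thinned to the depth of the smallest (log2 difference 0.26, adjusted p = 0.650).

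Il7 was 40.0, 38.3, 50.5 and 42.3 CPM in the peripheral lymphatic sums and 32.0, 25.4, 28.5 and 27.0 in the mesenteric ones. No mesenteric sum reached the lowest peripheral sum, but the difference did not pass (log2 0.46, SE 0.15, adjusted p = 0.0997). Once the library entered as a block it did (0.46, adjusted p = 0.0322). Csf1 was 811, 884, 610 and 779 CPM in peripheral and 749, 832, 477 and 756 in mesenteric sums, which overlapped, with a log2 difference of 0.05 (SE 0.15, adjusted p = 0.913). Set against the mesenteric pool of the same library and genotype, Csf1 was higher in the peripheral pool in 4 of 4 pairs in lymphatic cells (mean log2 difference 0.15) and in 4 of 4 in blood endothelial cells (0.12). The fit called 2 of 5 members tested, where it called 534 of 10667 genes, or 5.01%. With the library as a block it called 3 members and 1390 genes, or 13.0%.

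**Figure D2:**
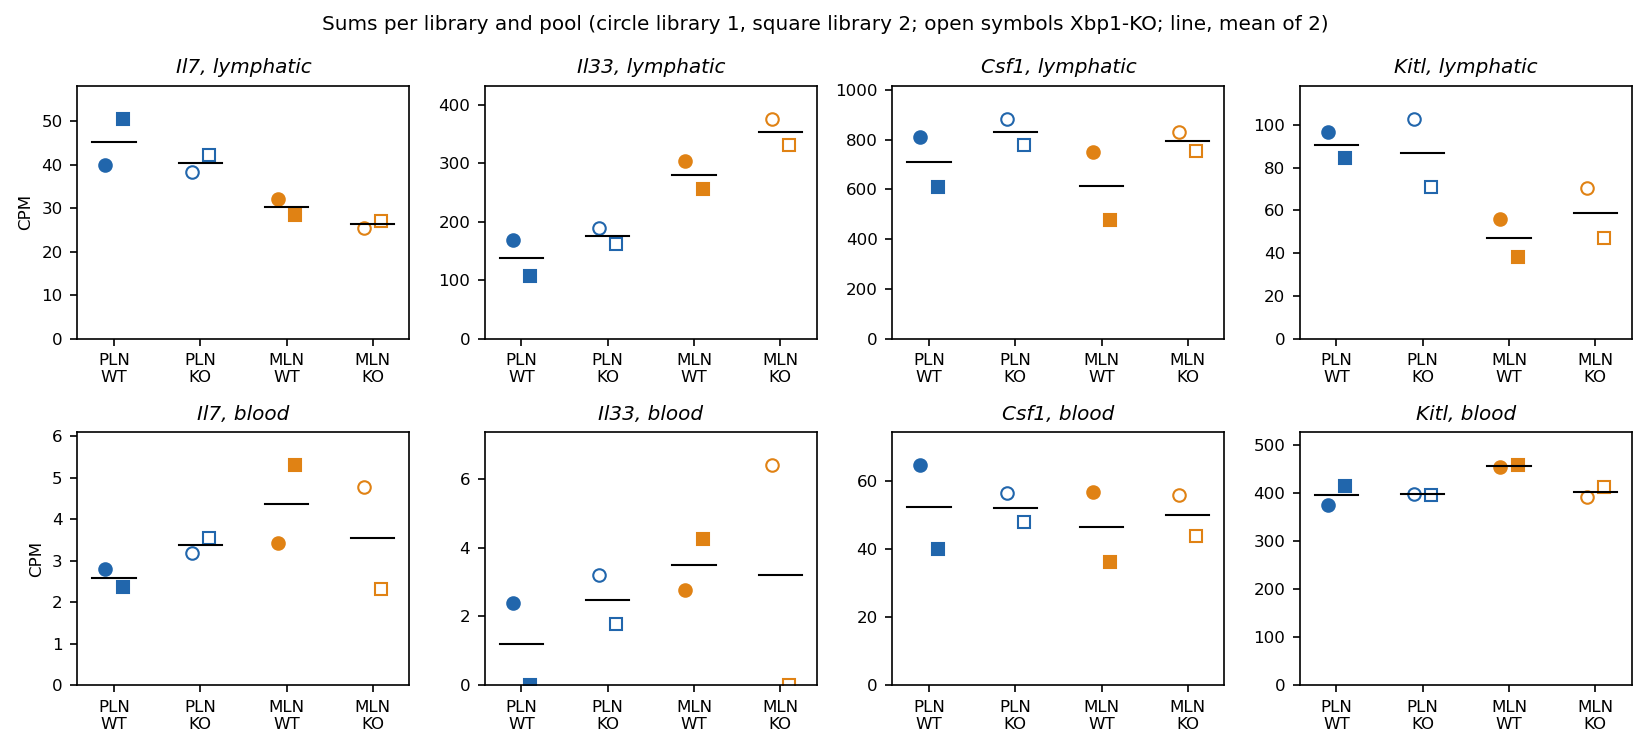
CPM of Il7, Il33, Csf1 and Kitl in lymphatic sums (top) and blood endothelial sums (bottom), by tissue and genotype (PLN peripheral nodes, MLN mesenteric nodes), on linear axes from 0 that differ between panels. Circles are library 1, squares library 2, filled symbols WT, open symbols Xbp1-KO, and the line is the mean of both libraries. In lymphatic sums every mesenteric value of Il33 lies above, and every mesenteric value of Kitl and Il7 below, all peripheral values.

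Other quantities moved with tissue in these sums. Of a list of 15 immediate-early and heat-shock genes that tissue dissociation can induce, 6 were higher in peripheral lymphatic cells (Junb, Zfp36, Dusp1, Egr1, Fosb and Ier2) and 1 was lower (Hspa1a), with a median log2 difference of 0.52, where the median over all genes tested was 0.0073. With the library as a block 11 of the 15 were called higher (Atf3, Fos, Jun, Nr4a1 and Socs3 in addition) and 3 lower (Hspa1b and Ier3 in addition). Fibroblastic markers summed to 91.4 to 108 CPM in peripheral and 45.1 to 68.3 in mesenteric lymphatic sums, beside 22194 CPM in fibroblastic-like cells. The 7 blood endothelial markers summed to 1053 to 1221 CPM in peripheral and 831 to 972 in mesenteric lymphatic sums, against 4917 to 5726 in blood endothelial sums. Most of that came from Kdr, at 947 CPM pooled over lymphatic cells, while Flt1, Cd34 and Sox17 were at 14.4, 8.68 and 1.85. Arterial markers summed to 404 to 488 CPM in peripheral and 252 to 311 in mesenteric lymphatic sums. Venous markers went the other way, at 497 to 661 and 719 to 963 CPM, as did mural markers, at 75.05 to 110 and 109 to 239. High endothelial markers summed to 1448 to 3692 CPM in peripheral and 3427 to 7020 in mesenteric lymphatic sums, which overlapped slightly. The mix of subsets also differed. The Postn cluster made up 31.5% of 2784 peripheral and 3.81% of 919 mesenteric lymphatic cells, and the Ccl20 cluster 1.90% and 32.9%. The part of the dissociation genes and of these other markers in the results, that of Kitl included, was not tested. With the subsets set to the same shares in both tissues, and the floor-like clusters merged, the pooled log2 difference of Il33 went from -0.91 to -0.70, that of Il7 from 0.48 to 0.40, and that of Kitl was 0.81 both ways. Because the Postn and Ccl20 clusters were merged, the opposite shifts in their shares were not evened out. Mean Kitl was 70.3 CPM in the Postn and 22.5 in the Ccl20 cluster, and the part of these shifts was not tested.

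Il33 was then compared between tissues inside subsets, where no test passed after adjustment. In the Igfbp5 cluster, the only lymphatic cluster with at least 20 cells in all 8 sums, Il33 was 7.92, 7.50, 6.03 and 3.89 CPM in peripheral sums and 71.4, 113, 136 and 129 in mesenteric ones. The groups lay far apart, at 6.33 ± 1.82 against 112 ± 29.0 (SD, n = 4 each), a log2 difference of -3.95 on the log2(CPM + 1) scale. The exact two-sided permutation p was 0.0286, the smallest that 4 against 4 allows, and 0.0857 after adjustment over 3 tests. A lone result at that floor cannot pass such an adjustment. The values rest on 87 UMIs. In the same cluster Il7 (exact permutation p = 0.657) and Csf1 (exact permutation p = 0.971) overlapped between tissues.

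Testing every lymphatic cluster with at least 2 sums of 10 cells per tissue was added after seeing the data and gave 25 tests, of which none passed (exact permutation, lowest adjusted p = 0.143). With at most 4 sums per tissue, none of these tests could have passed the adjustment, whatever the values. They therefore do not decide whether the subsets differed between tissues. In the Ackr4 cluster Il33 was 19.7 ± 5.37 CPM in peripheral and 77.9 ± 35.9 in mesenteric sums (SD, n = 4 each), with no overlap. Marco-like cells had 395 ± 44.2 (n = 4) and 687 ± 53.9 (n = 3), and merged floor-like cells 252 ± 48.2 and 371 ± 21.5 (n = 4 each), also without overlap. Ptx3-like cells stood apart from the other subsets: there Il33 was 112 ± 18.9 CPM in peripheral sums (n = 4) and 67.9 ± 22.6 in mesenteric ones (n = 3).

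The Igfbp5, Ackr4 and Ptx3 clusters were also examined at a clustering resolution of 2, without a test. Most cells of the Igfbp5 cluster stayed together, with 7.62 CPM of Il33 in 310 peripheral cells and 121 in 153 mesenteric cells. A part led by Nts split off, in which 28 mesenteric cells held 1 Il33 UMI (6.98 CPM) and 29 peripheral cells held 0. Ackr4 cells had 18.02 and 87.8 CPM, and Ptx3-like cells 109 and 63.6.

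Kitl in the merged floor-like clusters was 85.3 ± 13.2 CPM in peripheral and 18.1 ± 8.11 in mesenteric sums (SD, n = 4 each, exact permutation p = 0.0286, adjusted p = 0.143), with no overlap. In Ptx3-like cells it was 165 ± 18.2 (n = 4) and 182 ± 57.0 (n = 3), which overlapped. Peripheral floor-like cells were mostly Postn cells and mesenteric ones mostly Ccl20 cells, so the merged difference also holds the difference between these clusters. Inside the Postn cluster Kitl was 71.8, 98.0, 101 and 77.9 CPM in the peripheral sums and 62.2 and 11.1 in the mesenteric sums of at least 10 cells (exact permutation p = 0.133, adjusted p = 0.208). A mesenteric sum of 6 cells, left out, was at 113. Inside the Ccl20 cluster it was 63.3 and 16.9 in the peripheral sums and 22.6, 8.42, 8.51 and 15.5 in the mesenteric ones, which overlapped and had too few UMIs to be tested. In Marco-like cells it was 186 ± 34.2 (n = 4) and 112 ± 36.7 (n = 3), overlapping (exact permutation p = 0.114, adjusted p = 0.208). Il7 in Ptx3-like cells was 75.9 ± 13.6 CPM in peripheral sums (n = 4) and 36.2 ± 15.7 in mesenteric ones (n = 3), without overlap (exact permutation p = 0.0571, adjusted p = 0.143).

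**Figure D3:**
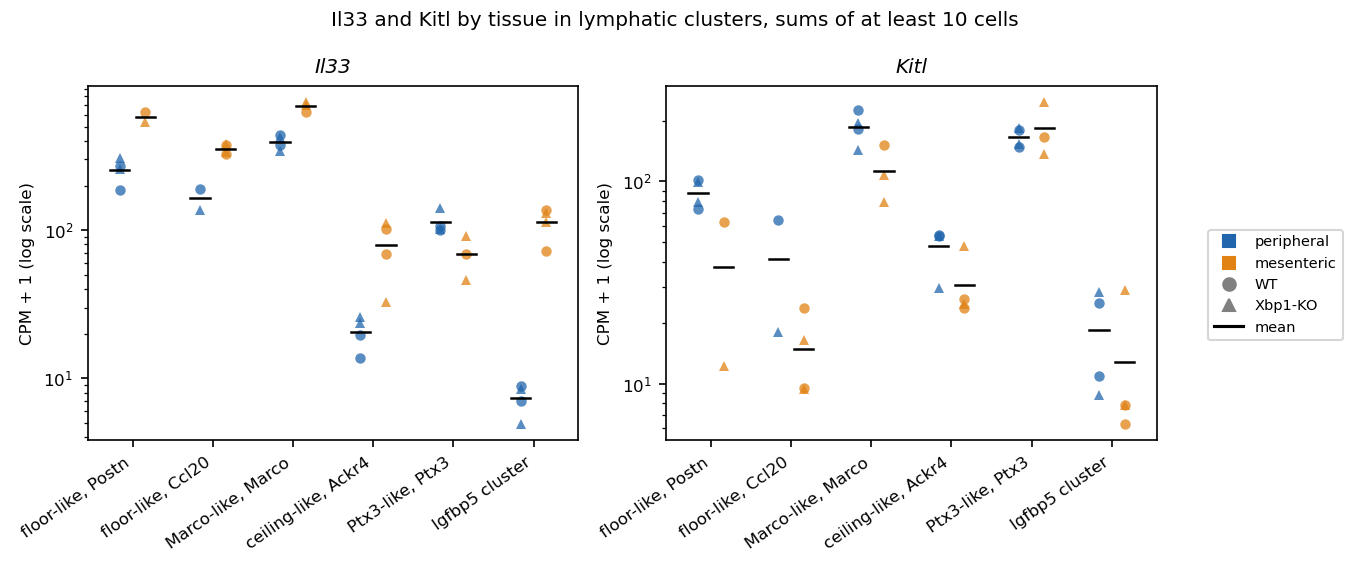
CPM + 1 of Il33 and Kitl on log axes in 6 lymphatic clusters, for sums of at least 10 cells. Blue is peripheral, orange mesenteric, circles WT, triangles Xbp1-KO, and the line is the mean. Il33 is higher in mesenteric sums of 5 clusters, by most in the Igfbp5 cluster (6.33 against 112 CPM), and lower in those of Ptx3-like cells.

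In blood endothelium neither Csf1 nor Kitl passed the test of tissue. Kitl was 376, 399, 414 and 396 CPM in peripheral sums and 454, 391, 458 and 412 in mesenteric sums, overlapping (log2 difference -0.12, SE 0.12, adjusted p = 0.934, edgeR). Csf1 was 52.3 ± 10.5 and 48.1 ± 9.98 CPM (SD, n = 4 each; log2 difference 0.13, SE 0.20, adjusted p = 0.979). Of 3 members tested 0 were called, where the fit called 101 of 10055 genes, or 1.0%, and 493 or 4.90% with the library as a block. Within single blood endothelial clusters, 12 added tests gave a lowest adjusted p of 0.84 (exact permutation).

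The third comparison asked what changed in Xbp1-KO cells. Xbp1 encodes a factor that switches on genes for protein folding and secretion when the endoplasmic reticulum is loaded. The targeted gene itself was 122, 109, 101 and 56.9 CPM in WT lymphatic sums and 47.1, 54.3, 50.5 and 51.7 in Xbp1-KO ones, which did not overlap. In blood endothelial sums it was 173, 207, 174 and 250 against 91.9, 113, 111 and 133. Neither difference passed in the fit without a block (adjusted p = 0.153 and 0.637), and both passed in the blocked fit (adjusted p = 0.000841 and 0.000713). As the deleted exon is not given, 3′ counts may come from outside it.

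No member passed the test of genotype in either endothelium. In lymphatic cells the log2 differences, Xbp1-KO minus WT, were 0.26 for Csf1 (SE 0.15, adjusted p = 0.830), 0.30 for Il33 (SE 0.14, adjusted p = 0.813), -0.22 for Il7 (SE 0.15, adjusted p = 0.848) and 0.02 for Kitl (SE 0.17). Csf1 was 662 ± 149 CPM in WT and 813 ± 57.2 in Xbp1-KO sums, and Il33 209 ± 87.6 and 264 ± 105 (SD, n = 4 each). Set against the WT pool of the same library and tissue, Csf1 and Il33 were higher in Xbp1-KO in 4 of 4 pairs (mean log2 differences 0.32 and 0.36), and Il7 lower in 4 of 4 (-0.18). Kitl was higher in 3 of 4.

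In blood endothelial cells Csf1 (log2 0.01, SE 0.20) and Kitl (-0.05, SE 0.12) were close to 0. Over all genes edgeR called 0 of 10667 in lymphatic cells, or 0%, with 647 at an unadjusted p under 0.05, 13 with DESeq2 and 98 (0.919%) with the library as a block. In blood endothelial cells it called 0 of 10055, with 242 unadjusted, 3 with DESeq2 and 18 (0.179%) with the block. Members were not among the blocked calls. Dissociation genes leaned the same way in both classes, with positive log2 differences for 14 of 15 in lymphatic and 15 of 15 in blood endothelial cells. None was called without the block. With the library as a block 4 were called higher in Xbp1-KO in each class, Atf3, Egr1, Hspa1a and Hspa1b in lymphatic cells (adjusted p from 0.00107 to 0.0238) and Hspa1a, Hspa1b, Jun and Jund in blood endothelial cells (0.000115 to 0.0326). In lymphatic cells this lean lay in the mesenteric pools, where their sum was 14315 CPM in WT and 20706 in Xbp1-KO of library 1, with 15986 and 28154 for those of library 2. Peripheral lymphatic pools gave 24085 and 24226, then 25859 and 24646. In blood endothelial cells the mesenteric sums were 19785 and 28774, then 25639 and 54197, and the peripheral ones 26704 and 23825, then 30755 and 36050. Their part in the Csf1, Il33 and Il7 differences was not tested. The tissue-by-genotype term called 0 genes in both classes (308 and 202 at an unadjusted p under 0.05, 2 and 0 with DESeq2, 15 and 1 with the block), none of them a member. Of the 15 blocked calls in lymphatic cells 4 were dissociation genes (Atf3, Egr1, Fos and Hspa1a), each with a negative term, meaning a lower Xbp1-KO minus WT difference in peripheral than in mesenteric nodes, from -1.47 to -0.78. Within clusters, 33 added exact permutation tests of genotype did not pass. Among them Kitl in arterial-like cells was 628 ± 46.5 CPM in Xbp1-KO and 548 ± 21.8 in WT sums without overlap (SD, n = 4 each, exact permutation p = 0.0286, adjusted p = 0.343). With at most 4 sums per genotype, none of the 21 lymphatic tests could have passed the adjustment. A lone result at the floor could not pass among the 12 blood endothelial tests either. These tests therefore do not decide whether subsets differed between genotypes.

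Il6 was carried by few cells. Its UMIs lay 45.1% in blood endothelial, 33.8% in lymphatic and 10.3% in fibroblastic-like cells. Among the 8 lymphatic sums the counts were 7, 10, 1 and 0 UMIs in the peripheral pools and 1, 10, 0 and 37 in the mesenteric pools, again WT and Xbp1-KO of library 1, then of library 2. The 37 UMIs of the mesenteric Xbp1-KO pool of library 2 came from 7 cells, and 1 cell held 16. That pool also held the most blood endothelial Il6 UMIs, 24, and all 8 found in mural-like cells. Its dissociation-gene sums were the highest as well, at 28154 CPM in lymphatic cells against 14315 to 25859 in the other 7 sums, and at 54197 in blood endothelial cells against 19785 to 36050. Their part in the Il6 counts was not tested. The lymphatic log2 difference for genotype was 2.59 (SE 0.75, adjusted p = 0.521, edgeR), and it was called with no filter on low counts (2.58, adjusted p = 0.0235). So was the tissue-by-genotype difference under that setting (-5.63, adjusted p = 0.0170), which was not called otherwise (-5.66, adjusted p = 0.99968).

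In blood endothelial sums Il6 gave 21, 19, 3 and 8 UMIs in peripheral and 1, 2, 10 and 24 in mesenteric pools. Peripheral counts were the higher ones in library 1 and mesenteric counts in library 2. The tissue difference was 0.41 (SE 0.71, adjusted p = 0.984), but 3.37 without library 2 (adjusted p = 3.95706e-05) and -1.35 without library 1. The direction thus turned with the library left out. The most Il6 UMIs of a blood endothelial cluster, 34 in 24 cells, were in the Aqp1 cluster.

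Tnfsf13b and Tnfsf11 were found mainly in fibroblastic-like cells, of which only 44 had passed the endothelial sort. These held 57.9% of 38 Tnfsf13b UMIs and 91.3% of 23 Tnfsf11 UMIs. Nearly all came from a cluster of 36 cells led by Ccl19 and Cxcl13, chemokines of T-zone and follicular stroma, in which 30 cells carried Ccl19. Tnfsf13b gave 21 UMIs in 13 of these cells, or 130 CPM (exact 95% Poisson interval 80.2 to 198, for counting error only). Tnfsf11 also gave 21 UMIs, but in 6 cells, 1 of which held 10. By pool, 12 of the 21 were in the mesenteric Xbp1-KO pool of library 2. The level was 56.0 CPM without library 2 and 273 without library 1, so it rests on library 2. Of the 6 cells, 3 also carried Tnfsf13b, and Madcam1, a marker of marginal reticular cells, was found in 1 of the 36 cells.

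The same Ccl19 cluster carried other members. Il6 was at 123 CPM (75.4 to 191), Il33 at 271 (197 to 364), Csf1 at 204 (140 to 286) and Il7 at 55.5, from 9 UMIs in 6 cells. Il7 was at 36.3 without library 1 and 65.4 without library 2. At 98.1 CPM in the only fibroblastic-like sum of at least 10 cells, which covers only the 12 peripheral Xbp1-KO cells of library 1, the markers of lymphatic cells were far below the 2305 to 3546 of lymphatic sums. The other pools had too few of these cells for such a sum. In a cluster of 8 fibroblastic-like cells led by Col3a1, Gsn and Clec3b, Il33 gave 17 UMIs and Csf1 13, while Il6, Il7 and Tnfsf11 gave 0. A count of 0 allows 3 counts, and in so few cells that limit is wide.

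Mural-like cells, the pericytes and smooth muscle around vessels, carried Kitl. It was 445 CPM (347 to 562, from 70 UMIs) in the Acta2 cluster and 262 (181 to 366, from 34 UMIs) in the Notch3 cluster. The Acta2 value was 474 without library 1 and 422 without library 2. The Notch3 value rested on library 1: it was 119 CPM without library 1 and 330 without library 2. Blood endothelial markers summed to 1543 to 2917 CPM in mural-like sums, against 4917 to 5726 in blood endothelial ones. Their part in the mural Kitl level was not tested. Tnfsf13b and Tnfsf11 gave 0 UMIs in both mural-like clusters, which at 3 counts allows up to 23.1 CPM in the Notch3 and 19.1 in the Acta2 cluster. The exact Poisson intervals in the plot of stromal clusters reach higher, to 28.4 and 23.5 CPM.

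**Figure D4:**
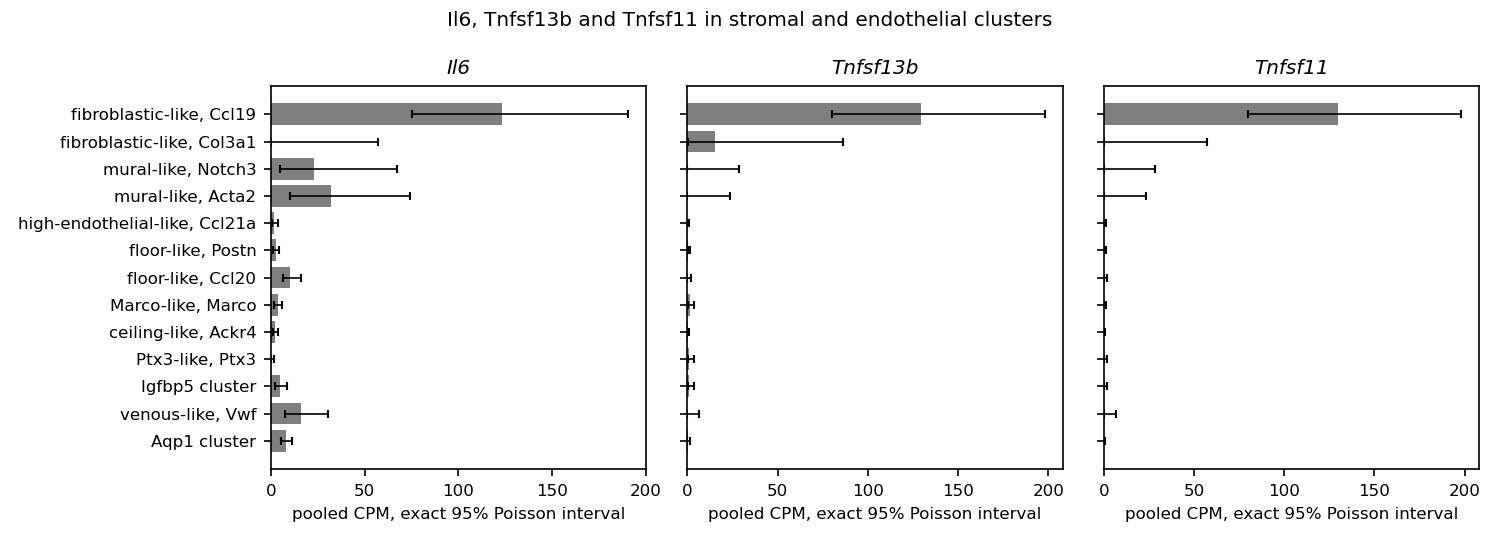
Pooled CPM (bars, linear axis from 0) of Il6, Tnfsf13b and Tnfsf11 in stromal clusters and selected endothelial clusters, with exact 95% Poisson intervals that cover counting error only. The Ccl19 fibroblastic-like cluster is highest in all 3 panels, at 123, 130 and 130 CPM, and the intervals of the other clusters lie at or below 86.5.

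The cytokines' receptors were taken from a list of 14, of which 6 had enough counts to be tested between lymphatic and blood endothelium. Higher in lymphatic cells were Tnfrsf11a, the RANK receptor of Tnfsf11 (log2 2.69), Il6st, the shared gp130 subunit (1.55), and Il2rg, the common gamma chain (1.35). Kit (-2.85) and Crlf2 (-0.50) were higher in blood endothelial cells, and Il1rap did not pass. The median log2 difference over the 6 was 0.66, and over all genes tested it was 0.0059. Kit was thus higher on the same side as its ligand Kitl. The ligand-specific chains Il7r, Csf1r and Il1rl1 were nearly absent from both classes: Il7r gave 3 UMIs in lymphatic and 0 in blood endothelial cells, Csf1r 9 and 2, and Il1rl1 2 and 0. Between tissues in lymphatic cells none of the 6 was called without the block. With the library as a block Tnfrsf11a (0.43, adjusted p = 0.0202) and Il6st (0.35, adjusted p = 0.0104) were called higher and Crlf2 lower (-0.42, adjusted p = 0.0254) in peripheral nodes. None was called between genotypes in either fit.

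Of 12 other niche cytokines 7 were tested between lymphatic and blood endothelium. Higher in lymphatic cells were Lif, a cytokine of the Il6 family (log2 6.40), Ltb, the membrane subunit of lymphotoxin (5.56), Tnf (4.61) and Flt3l, the dendritic cell growth factor (0.98). Il15, which sustains NK and memory T cells, was lower (-2.45), as was Tnfsf13 (-0.84), which encodes APRIL, and Tslp did not pass (-0.01). The median over the 7 was 0.98. Between tissues, Tnf (log2 -2.72, adjusted p = 0.000104) and Ltb (-0.48, adjusted p = 0.0242) were lower in peripheral lymphatic cells, the direction of Il33. Tnf was among the leading genes of the Ccl20 cluster, which made up 1.90% of peripheral and 32.9% of mesenteric lymphatic cells. The part of the mix of subsets in the Tnf and Ltb differences was not tested. For genotype none passed without the block (Tnf in lymphatic cells 1.12, adjusted p = 0.384). In the blocked fit Tnf was called higher in Xbp1-KO lymphatic cells (0.98, adjusted p = 0.0359), and Lif was called for the tissue-by-genotype term (-2.82, adjusted p = 0.00692). Il34, the other ligand of Csf1r, was found chiefly in mural-like cells, at 136 CPM from 39 UMIs.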

How the data were processed

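The authors deposited raw counts (UMIs per gene and barcode) from Cell Ranger, version 6.0.1 per the file headers and 6.1 with mm10 per the submitters' processing notes, beside hashtag counts. The labels name different kit versions in 2 places. Hashtags were called with HTODemux (Seurat 5.3.0, quantile 0.99). Barcodes with a single tag, 500 or more genes and no more than 10% mitochondrial UMIs were used, and Scrublet removed 65 and 4 doublets. The variable genes, without the members, were clustered in scanpy 1.11.5 (30 components, Leiden resolution 1). Clusters were named from fixed marker lists and otherwise by a leading gene, and clusters with the blood endothelial markers but no subset name (Penk, Aqp1, Scgb3a1, Ifit3b) were kept in that class.

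Counts summed per library and pool were tested with edgeR 4.0.16 (quasi-likelihood, TMM, filterByExpr, R 4.3.3) over all genes, with Benjamini-Hochberg adjustment and a threshold of 0.05; the code was tested on simulated counts. Pools of 1 library were captured together, so the library pairs them: deviations of same-library sums correlated at 0.0557 to 0.228 in lymphatic and 0.159 to 0.420 in blood endothelial cells over 6 pairs. Subsets were tested with exact permutation tests on log2(CPM + 1). All 7 members are named throughout. From the receptor and cytokine lists up to 5 genes past the threshold are named by size, and others named there were added after their values were seen. Members, lists and rules were chosen with earlier results of these data known.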

Additional observations from a re-analysis of the deposited data

Results flagged for a closer look

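Of 82 groups of sums examined for a single distant value, 7 had one, and chance alone gives about 1 in 20. Among peripheral sums, Il7 was highest at 24.4 CPM in the Postn cluster and lowest at 30.1 in the Igfbp5 cluster, Il33 was highest at 140 in Ptx3-like cells, and Csf1 was lowest at 1084 in the Postn cluster and at 37.9 in arterial-like cells. Kitl in the Ackr4 cluster had a low peripheral sum at 28.5 CPM and a high mesenteric sum at 47.0, and these groups overlapped.

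The tissue difference of Il33 went in opposite directions in different lymphatic subsets. Within libraries, peripheral minus mesenteric log2 differences averaged -0.85 in Marco-like cells (lower in 3 of 3 pairs), -1.83 in the Ackr4 cluster (4 of 4) and -3.95 in the Igfbp5 cluster (4 of 4). In Ptx3-like cells the average was 0.80, with Il33 higher in 3 of 3 pairs. The difference between subsets was not tested. A mesenteric sum of 3 Ptx3-like cells was too small to enter; it gave 105 CPM from 2 UMIs.

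The genotype difference of Kitl, Xbp1-KO minus WT, averaged 0.20 in arterial-like cells (higher in 4 of 4 pairs) and -0.35 in Marco-like cells (lower in 3 of 3 pairs). Inside these clusters the test of genotype did not pass (exact permutation, adjusted p = 0.343 in arterial-like and 0.99 in Marco-like cells). The difference between the clusters was not tested.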

How the results depend on the processing

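The differences of Csf1, Il33, Il7 and Kitl between lymphatic and blood endothelium, and of lymphatic Il33 between tissues, were called under all 9 alternatives run. With the library as a replicate block lymphatic Il7 between tissues was called (0.46), and no other member's call changed. Counts of genes called moved with the setting. For genotype in blood endothelial cells they were 3 (DESeq2), 18 (block), 30 (no filter) and 46 to 110 without a library; in lymphatic cells 13, 98, 71, 2 (thinned) and 35 to 94. For tissue in blood endothelial cells they were 493 (block), 343 (no filter), 61 (thinned) and 173 to 669 without a library; in lymphatic cells 328 (DESeq2), 1390, 876, 220 and 228 to 1311. Lymphatic against blood endothelium gave 3686 (thinned) and 4401 to 6052 without a library. The interaction gave 1 (block) and 15 (no filter) in blood endothelial, and 2 (DESeq2), 15 and 25 in lymphatic cells. Signs that turned belonged to small differences that were not called: with thinning Il7 genotype 0.085, Il7 interaction -0.14 and Csf1 blood tissue -0.019; Il33 interaction -0.0040 (DESeq2), -0.078 (hashtag margin) and -0.0075 (block); Csf1 blood genotype -0.0028 (hashtag margin), -0.024 (resolution 2), -0.0078 (no filter) and -0.13 to 0.33 without a library; Kitl lymphatic genotype -0.0050 (hashtag margin) and -0.089 to 0.099 without a library; and Csf1 tissue in the Igfbp5 cluster -0.17 to 0.061 without a library. Il6 blood tissue, not called with both libraries, was -1.35 without library 1 and 3.37, called, without library 2. Without a library Tnfsf11 in the Ccl19 cluster was 56.0 to 273 CPM and Kitl in the Notch3 cluster 119 to 330. The causes were not tested. Without a library the interaction could not be fitted, tissue and genotype were fitted as additive terms, and 2 sums against 2 cannot pass a permutation test. Genotype and sex cannot be told apart when a single library is left, so the genotype counts and differences without a library may hold both. The alternative that adds blood endothelial clusters without a class equals the class as used, since no such cluster was left. Of the neighbouring pairs, 41 of 44 kept their sign with a pseudocount of 10, and with at least 20 cells the lowest adjusted p of 25 pairs was 0.0651. The smallest lymphatic sum, 64 cells, limits what the mesenteric pools can show.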
